A study of Mus musculus with 3 samples.

Results

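Strong BACH2 peaks with no JunD peak nearby are the genomic intervals described here. A BACH2 peak was taken as strong when its −log10 q, the caller's measure of confidence after correction for multiple tests, was at least 29. It was taken as free of JunD when no JunD peak overlapped the interval extended by 500 bp on each side. Of 9133 BACH2 peaks, 1845 (20.2%) were strong and 6282 (68.8%) had no JunD peak within 500 bp. Both conditions held for 1030 peaks, or 11.3% of the BACH2 list and 55.8% of its strong peaks (95% Wilson interval 53.6 to 58.1). Of the remaining 815 strong peaks, 791 were overlapped by JunD and 24 had JunD only in the flank. The values that chose these peaks are given as a description, without a test, and so are fold enrichment and width, which come from the same peak calls.

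The study mapped both factors by chromatin immunoprecipitation and sequencing (ChIP-seq) in mouse induced regulatory T cells (iTreg cells). Both libraries came from wild type C57BL/6 mice aged 8 to 12 weeks. Their CD4+ T cells from spleen were enriched, sorted and cultured for 4 days with TGF-β on plates coated with antibodies to CD3ε and CD28. There was 1 BACH2 library, made with an antibody named N-2, and 1 JunD library, for which the labels give 2 antibody catalogue numbers without saying which was used. An input library is also listed and was not analysed here. The cells are total CD4+ T cells converted in culture, and the labels record no later sort for Foxp3, the factor that defines regulatory T cells. Peak lists hold no expression values, so the cell type could not be checked against its markers. Without replicate libraries, no difference below can be set against replicate error, and the sequencing depth is unknown.

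BACH2 represses transcription and belongs to the basic leucine zipper proteins, pairing with small MAF proteins to bind DNA. It is known in T cells for restraining effector programmes and for favouring regulatory T cells. JunD is a subunit of AP-1, an activator complex whose recognition sequence lies within the longer element bound by BACH and MAF factors. Sites with strong BACH2 and no listed JunD are therefore of interest, because the related sequences allow either factor to bind the same DNA. A site is free of JunD here only in the sense that the deposited JunD list, whose lowest score is 50, holds no peak there. Weaker JunD binding below that limit would not be seen.

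Strong BACH2 peaks lacked JunD less often than weaker ones. The share without JunD was 55.8% among strong peaks and 72.1% (71.0 to 73.1) among the 7288 weaker peaks. By class of −log10 q, it was 74.6% of 3834 peaks below 10 and 71.9% of 2588 peaks from 10 to 20. It was 61.2% (57.9 to 64.4) of 866 peaks from 20 to 29 and 65.4% (61.5 to 69.1) of 601 peaks from 29 to 40. The share continued at 54.2% from 40 to 60, 53.4% from 60 to 100 and 40.7% (34.8 to 46.9) of the 248 peaks from 100 to 200. Of the 17 peaks above 200, 9 had no JunD, a share of 52.9% whose interval of 31.0 to 73.8 covers most of the other classes. The share thus fell with strength over most of the range. It was higher in the class just above 29 than in the class just below, but their intervals overlap. It was higher again at the top, where peaks were few. Counted from the top of the BACH2 list, 7 of the strongest 10, 19 of the strongest 50, 37 of the strongest 100 and 506 of the strongest 1000 had no JunD within 500 bp. These intervals cover the counting of peaks only.

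**Figure D1:**
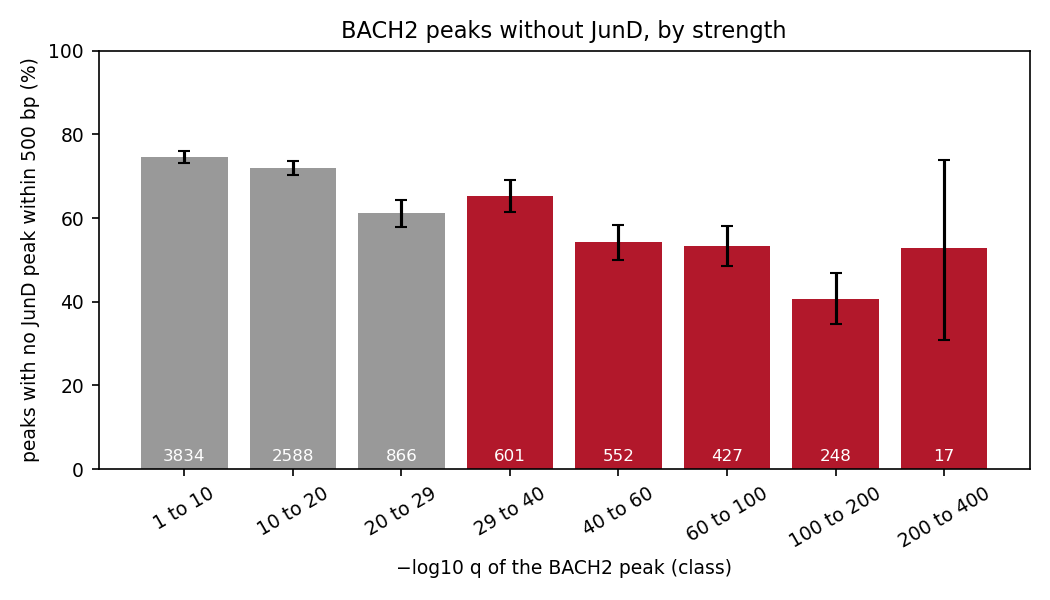
Share of BACH2 peaks with no JunD peak within 500 bp, in percent, by class of −log10 q, with 95% Wilson intervals and the number of peaks at the foot of each bar. Red bars are the strong classes. The share is 74.6% in the weakest class and 40.7% in the class from 100 to 200.

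Within the 1030 peaks, strength was spread over a long upper tail. Their −log10 q had a median of 46.6, an interquartile range of 35.8 to 68.0 and a maximum of 290.7. It was at least 50 in 469 peaks, at least 100 in 110, at least 150 in 26 and at least 200 in 9. Fold enrichment over the caller's background ran from 5.26 to 49.3 with a median of 12.2 (interquartile range 9.83 to 15.7), against 5.75 in the whole list. It was at least 10 in 756 peaks, at least 20 in 101 and at least 30 in 22. Widths ran from 214 to 1599 bp with a median of 407 bp (340 to 502.75), and 10 peaks were wider than 1 kb. Summits lay near the middle, with a median offset of 26.25 bp and 775 of 1030 within 50 bp. Over all BACH2 peaks the median width was 267 bp, 0.296% were wider than 1 kb and 80.7% had their summit within 50 bp of the middle, beside 75.2% here. The strong peaks without JunD were thus wider than the list as a whole, and fewer of them had a central summit. Among strong peaks with JunD the share with a central summit was lower still, at 64.3%. It was 75.9% among weaker peaks with JunD and 86.2% among weaker peaks without it. The limit of 50 bp was the same for all widths, and the part of width in these shares was not tested.

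Both limits cut through a continuous range of values. The weakest peak kept, chr3:93353936-93354202, had a −log10 q of 29.03 and a 9.24-fold enrichment. The next ones kept were chr16:20830277-20830781 and chr5:104475457-104475841, both at 29.07 and 6.91-fold. The closest ones left out were chr6:59265903-59266248 and chr15:74748945-74749224, at 28.999 and 28.998, with 7.29-fold and 7.89-fold, and chr12:55391232-55391708 at 28.94 and 9.43-fold. For distance, the peak kept nearest to JunD was chr6:125114265-125114790, at a gap of 554 bp and 14.4-fold. It was followed by chr7:82933433-82933683 at 577 bp, chr6:15744833-15745298 at 588 bp, chr19:32349669-32350451 at 611 bp and chr4:40784913-40785209 at 613 bp. The strong peaks left out by the narrowest margin were chr12:85029889-85030424 at 491 bp, chr9:66838738-66839122 at 483 bp and chr7:150814453-150814972 at 462 bp. They were followed by chr2:181116665-181117052 at 432 bp and chr1:156898154-156898705 at 385 bp.

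At like −log10 q, strong peaks without JunD had higher fold enrichment and were narrower than strong peaks with JunD. In the class from 29 to 40 the median fold was 10.03 without and 8.75 with JunD, and the median width 350 against 389.5 bp. From 40 to 60 the folds were 11.8 and 10.9 and the widths 391 and 435 bp. From 60 to 100 they were 15.9 and 14.5, and 450 and 474 bp. From 100 to 200 they were 22.1 and 20.2, and 528 and 575 bp. Above 200, with 9 and 8 peaks, they were 31.4 and 28.5, and 627 and 761.5 bp. The direction was the same in all 5 classes, and in all 8 classes when the weaker peaks were included. Fold, width and −log10 q come from the same peak calls, so the agreement among classes is a description and not independent support. Pooled over classes, strong peaks without JunD had a median width of 407 bp against 464 bp, a median fold of 12.2 against 12.0 and a lower median −log10 q (46.6 against 53.6). A wider interval has more room to meet a JunD peak, and the part of width in these differences was not tested. Within strong peaks without JunD, Spearman's rho was 0.75 between fold and −log10 q, 0.46 between width and −log10 q and 0.24 between fold and width. These are correlations over 1030 peaks of 1 library that share its background, and are given as a description.

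**Figure D2:**
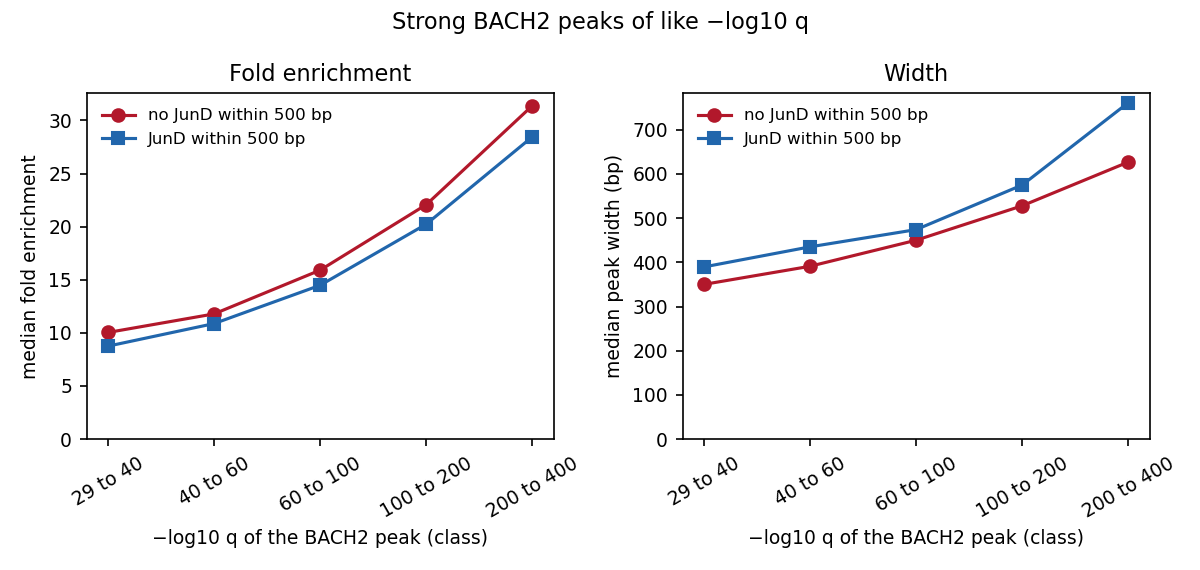
Median fold enrichment (left) and median width in bp (right) of strong BACH2 peaks by class of −log10 q, without JunD within 500 bp (red circles) and with it (blue squares). In each class the red points lie higher for fold and lower for width.

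Fold and −log10 q named partly different peaks, as 65 of the top 100 by one were in the top 100 by the other. The highest fold belonged to chr11:81988325-81988820, at 49.3-fold and the second highest of the whole BACH2 list, with a −log10 q of 214. The next were chr13:113077215-113077904 at 41.1-fold, chr10:82321446-82322172 at 38.2-fold, chr11:60748771-60749489 at 38.1-fold and chr1:59219629-59220152 at 36.7-fold. At the other end, 5 peaks had folds below 6 in spite of a −log10 q of 29.1 to 38.7. They lay at chr7:150811061-150811469 (5.26-fold), chr7:82933433-82933683 (5.52-fold), chr11:82891469-82891838 (5.62-fold), chr11:82852686-82852992 (5.74-fold) and chr2:167459767-167460203 (5.96-fold). All 5 had another BACH2 peak within 5.14 kb, and 3 of them had JunD within 1.04 kb. Over the 1030, 26.5% had another BACH2 peak within 5 kb and 2.62% had JunD within 1 kb. Among the 5 of highest fold, the nearest BACH2 peak lay at 19.6, 0.902, 44.2, 1.58 and 14.8 kb. Close BACH2 neighbours were thus found at both ends of the fold range. The nearest JunD peak of the same 5 lay at 19.6, 30.3, 229, 104 and 14.6 kb, in the same order.

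The 15 strongest of these peaks lay on 9 chromosomes, 3 of them on chromosome 11. Their widths ran from 487 to 727 bp, and 11 of the 15 were enriched at least 30-fold. The strongest, chr11:60748771-60749489, had a −log10 q of 290.7 and the nearest JunD peak 104 kb away, with a weak BACH2 peak (−log10 q 6.29) at 1.58 kb. The next, chr5:116103010-116103627 (33.8-fold), had JunD at 62.4 kb and its nearest BACH2 neighbour at 39.8 kb. On chromosome 13, chr13:110566337-110566922 (27.7-fold) had both JunD and BACH2 neighbours at about 45 kb (45.0 and 45.7 kb), whereas chr13:113077215-113077904 had a BACH2 peak at 0.902 kb and JunD at 30.3 kb. The fifth, chr18:38043071-38043623, reached a −log10 q of 251.0 at only 21.0-fold.

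Distances to JunD differed widely among these strongest peaks. Over all 1030, JunD lay within 10 kb of 20% and within 100 kb of 65.3%. JunD lay within 10 kb of 3 of the 15, which were chr10:18814068-18814790 at 9.49 kb, chr8:84280424-84281050 at 8.68 kb and chr11:115335188-115335674 at 9.43 kb. It lay more than 100 kb away from 5 of them. Besides the strongest, these were chr9:110547621-110548116 at 196 kb, chr10:82321446-82322172 at 229 kb, chr14:67807282-67807967 at 845 kb and chr8:18936172-18936762 at 3416 kb. The last of these had a −log10 q of 178.5 and a 35.0-fold enrichment, with no other BACH2 peak within 100 kb. Others at middle distances were chr1:59219629-59220152 (−log10 q 190.0, JunD at 14.6 kb) and chr5:144175572-144176292 (183.6, JunD at 84.4 kb). Another BACH2 peak stood within 10 kb of 7 of the 15, and of 38.7% of the 1030. The nearest BACH2 peak was itself strong in 2, chr11:81988325-81988820 and chr10:82321446-82322172.

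The widest peaks were not the strongest. They were chr18:13131523-13133121 (1599 bp, 13.0-fold), chr11:75273576-75274957 (1382 bp, 14.5-fold), chr5:105574162-105575500 (1339 bp, 18.6-fold), chr2:118270023-118271307 (1285 bp, 12.3-fold) and chr1:129202231-129203357 (1127 bp, 15.3-fold). Their −log10 q values were 76.6, 165.0, 131.3, 30.7 and 62.9, beside a median of 46.6 over the 1030. Only the one at 30.7 was barely past the limit. The narrowest were chr4:119480068-119480281 (214 bp, 13.5-fold), chr18:77311154-77311373 (220 bp, 8.67-fold), chr4:125889131-125889350 (220 bp, 11.3-fold), chr3:137613517-137613739 (223 bp, 10.6-fold) and chr9:119921967-119922198 (232 bp, 10.9-fold). Their −log10 q values lay between 29.7 and 39.7.

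Beyond the 500 bp that the rule set, strong peaks without JunD lay about as far from JunD as weaker ones did. The median gap to the nearest JunD peak was 54.7 kb (interquartile range 14.2 to 174 kb) for the 1030 strong peaks and 49.4 kb (12.6 to 166 kb) for the 5252 weaker peaks without JunD. JunD lay within 10 kb of 206 of the 1030 (17.7 to 22.6%) and of 21.5% (20.4 to 22.6) of the weaker ones. It lay within 100 kb of 65.3% and 64.5%. No JunD peak was found within 1 Mb of 39 of the 1030 (3.79%) and 199 of the 5252 (3.79%). Spearman's rho between the gap to JunD and −log10 q over the 1030 was −0.03. The gaps of strong and weaker peaks thus had similar medians and quartiles, while the largest was 3723 kb for strong and 8330 kb for weaker peaks.

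The 5 strong peaks farthest from JunD were chr12:60317145-60317551 and chr12:60234114-60234803 (3723 and 3640 kb), chr8:18936172-18936762 (3416 kb), chr1:16678172-16678835 (3048 kb) and chr1:9980119-9980379 (2901 kb). The pair on chromosome 12 stood 82.3 kb apart, at 20.9-fold and 14.2-fold, and each was the other's nearest BACH2 peak. Where JunD was within 10 kb, that JunD peak was itself overlapped by a different BACH2 peak in 135 of 206 cases (65.5%, 58.8 to 71.7). Where the nearest JunD peak was farther than 10 kb, this held in 393 of 824 (47.7%, 44.3 to 51.1), beside 48.8% over all JunD peaks. The weaker peaks without JunD gave 63.0% and 50.9%. A JunD peak within 10 kb that met a different BACH2 peak was thus found for 135 of the 1030. The score of the nearest JunD peak had a median of 81.9 against 81.6 in the whole JunD list.

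BACH2 peaks were spaced more loosely around strong peaks without JunD than around those with it. Another BACH2 peak lay within 10 kb of 399 of the 1030 (38.7%, 35.8 to 41.7), of 437 of the 815 strong peaks with JunD (53.6%, 50.2 to 57.0) and of 37.4% (36.1 to 38.8) of the weaker peaks without JunD. Within 1 kb the shares were 8.93%, 19.02% and 9.37%. The median gap to the nearest other BACH2 peak was 18.5 kb, 8.55 kb and 19.9 kb in the same order. No other BACH2 peak lay within 100 kb of 17.9%, 9.45% and 18.7%. In spacing, the strong peaks without JunD thus lay close to the weaker peaks without JunD and apart from the strong peaks with JunD. Of the 399 neighbours within 10 kb, 87 were strong (21.8%) and 109 had JunD within 500 bp (27.3%, 23.2 to 31.9). Over all BACH2 peaks with such a neighbour, it was strong for 20.05% and had JunD for 42.1%, and for weaker peaks without JunD these shares were 20.1% and 29.3%. Around strong peaks with JunD, 54.7% (50.003 to 59.297) of such neighbours had JunD, although there a neighbour can meet the same JunD peak. Peaks of 1 list are not independent, and these shares were not tested.

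**Figure D3:**
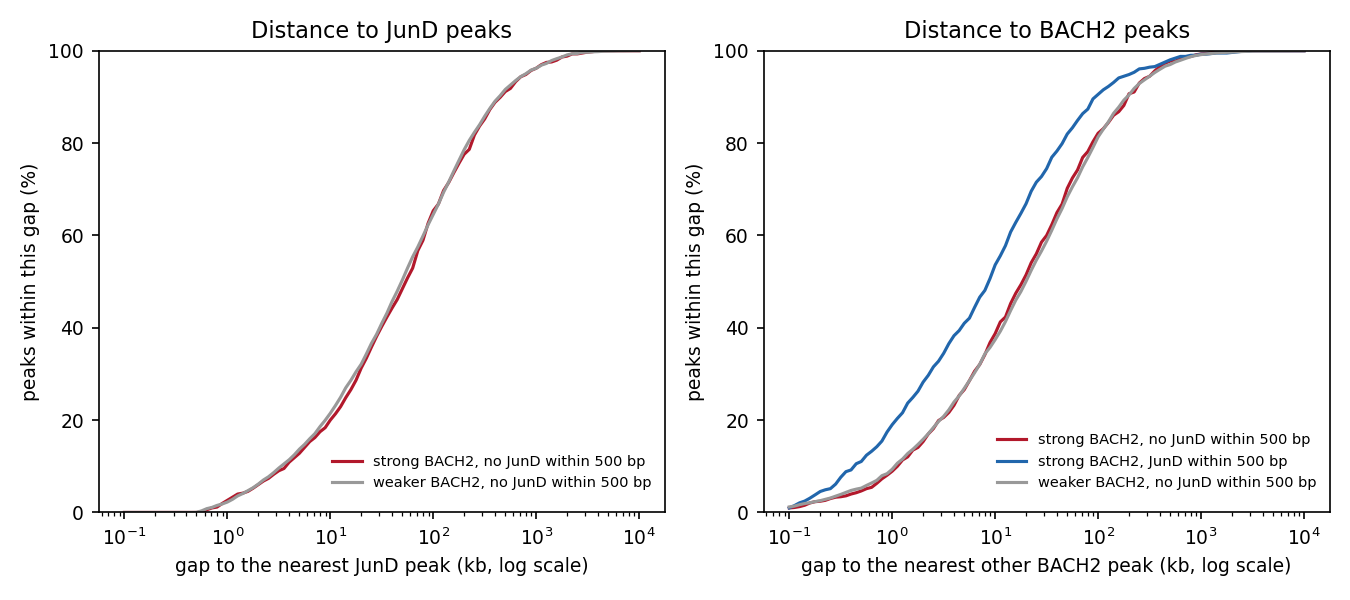
Cumulative share of peaks, in percent, by gap to the nearest JunD peak (left) and to the nearest other BACH2 peak (right), in kb on a log scale. The red and grey curves, strong and weaker peaks without JunD, run together in both panels, and the blue curve of strong peaks with JunD lies to the left of them on the right, with medians of 18.5, 19.9 and 8.55 kb.

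The most isolated peaks were not among the strongest of the set. Those farthest from any other BACH2 peak were chr10:105151966-105152309 (2404 kb, 13.1-fold), chr7:137788780-137789351 (2022 kb, 12.9-fold), chrX:153892475-153892782 (1602 kb, 10.2-fold), chr12:94465283-94465571 (1383 kb, 12.2-fold) and chrX:159197376-159197652 (1254 kb, 11.035-fold). Their −log10 q ran from 29.4 to 57.2, beside a median of 46.6 over the 1030. In all, 16 of the 1030 (1.55%) had neither another BACH2 peak within 100 kb nor a JunD peak within 1 Mb. Spearman's rho between isolation from BACH2 and −log10 q was −0.04.

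Few of these peaks had another of their kind within 10 kb. When those at most 10 kb apart were joined, they formed 988 groups, of which 949 were single peaks, 36 were pairs and 3 were groups of 3. At 50 kb there were 926 groups, 9 of them with 3 peaks and none larger. At 100 kb, 274 of the 1030 (26.6%) were in groups, which included 4 groups of 4 and 1 of 5 peaks. That of 5 ran from 20130319 to 20277299 on chromosome 13, with −log10 q values of 29.2 to 50.3. The groups of 3 with the highest −log10 q show different settings. On chromosome 8, peaks at 37245300, 37247108 and 37257199 (starts) spanned 12.3 kb with −log10 q values of 33.4, 144.9 and 115.0. No other BACH2 peak lay among them and JunD was at least 548 kb away. On chromosome 3, peaks at 142156444, 142193016 and 142196115 had values of 107.1, 57.5 and 90.8. A strong peak with JunD at 142159105 (54.9) and a weak one stood among them.

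On chromosome 10, the peaks at 67106250, 67109782 and 67120663 had values of 71.9, 48.1 and 37.9, with 2 weaker BACH2 peaks and no JunD peak in the span of 15.2 kb. On chromosome 19, the peaks at 32338418, 32341404 and 32349669 had values of 70.5, 32.2 and 41.4. They stood among 4 weaker BACH2 peaks, and JunD lay 798 bp from the strongest. On chromosome 6, the peaks at 87486192, 87497923 and 87547144 had values of 67.6, 35.9 and 38.8, and JunD met only the weaker BACH2 peak between the first pair. Strong peaks without JunD therefore formed groups both far from JunD and beside it.

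Every chromosome with BACH2 peaks carried some. The number ran from 21 to 94 on the autosomes and was highest on chromosome 2, with 94, followed by 75 on chromosome 10 and 71 on chromosome 11. The X chromosome held 11, or 7.75% of its 142 BACH2 peaks. This share was 6.95% on chromosome 19, the lowest, 13.4% on chromosome 2, the highest, and 11.3% over the whole list. Per Mb up to the last peak, the autosomes had a median of 0.407 (0.284 to 0.584) and X had 0.0672. As a share of the strong peaks, the autosomes ran from 38.9% (27.0 to 52.2) on chromosome 19 to 69.0% (57.5 to 78.6) on chromosome 8, with a median of 55.4%. On X, 11 of 16 strong peaks (68.8%, 44.4 to 85.8) had no JunD. The highest and the lowest autosome were picked from 19, and their intervals do not allow for that choice.

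**Figure D4:**
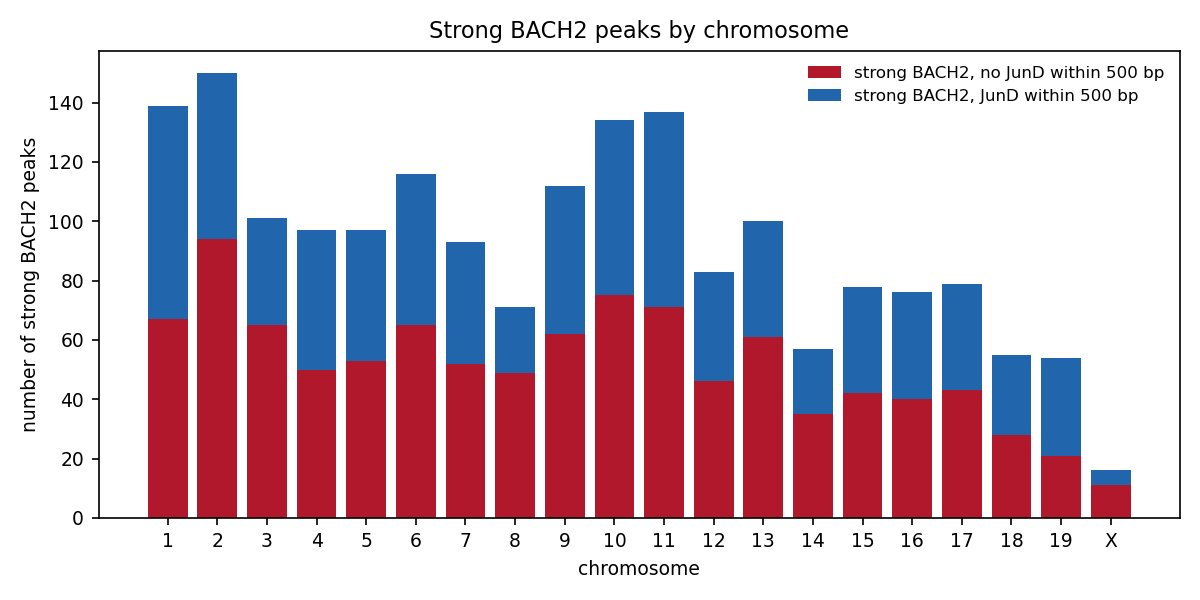
Number of strong BACH2 peaks on each chromosome, divided into those without JunD within 500 bp (red) and those with it (blue). Chromosome 2 has the most without JunD, 94, and X has the fewest, 11.

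Some of these peaks stood at genes of known interest for BACH2 and T cells. The lists do not pair peaks with genes, so the genes below were placed from general knowledge of the mm9 mouse assembly, as neighbourhoods and without gene coordinates. They were chosen after the positions had been seen and do not estimate how often such peaks lie near T cell genes. In windows of 100 to 400 kb at 8 loci, there were 18 strong peaks without JunD, 11 strong peaks with JunD and 64 weaker BACH2 peaks. Over all strong peaks, 1030 of 1845 (55.8%) had no JunD.

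At Hmox1, 2 strong peaks lay upstream of the gene, in the region known for its distal enhancers. Hmox1 encodes heme oxygenase 1, which breaks down heme, and is a classical target of BACH repressors, which are themselves inactivated by heme. The peak chr8:77607694-77608037 was enriched 23.3-fold with a −log10 q of 117.4, and chr8:77613436-77613951 was enriched 11.3-fold with 31.9. Their summits were 5.78 kb apart. They were the only BACH2 peaks in a window of 200 kb, which held no JunD peak, and the nearest JunD peak of the list was 2119 kb from the closer of them.

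At Prdm1, 4 strong peaks without JunD stood in and around the gene. Prdm1 encodes Blimp-1, a repressor that drives effector differentiation of lymphocytes and a known target of BACH2. The peaks chr10:44100285-44100951 (9.44-fold), chr10:44154442-44154851 (12.8-fold), chr10:44164169-44164659 (10.6-fold) and chr10:44169440-44169812 (11.6-fold) had −log10 q values of 56.0, 48.1, 35.4 and 44.9. The window of 200 kb held 1 JunD peak, of score 51.55, near the foot of its list. It met a further strong BACH2 peak, chr10:44167951-44168634 (7.70-fold), which lay between the last pair. The gaps from the 4 peaks to that JunD peak were 66.9, 13.0, 3.23 and 1.08 kb. All 4 had a higher fold than the peak that JunD met. Over all strong peaks, the median fold was 12.2 without JunD and 12.0 with it.

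Upstream of Tnfaip3 lay the sixth strongest peak of the set. Tnfaip3 encodes A20, an enzyme that damps NF-κB signalling. The peak chr10:18814068-18814790 was enriched 31.4-fold with a −log10 q of 244.8, and a further one at chr10:18896083-18896452 was enriched 23.2-fold with 85.0. The other 21 BACH2 peaks in the window of 300 kb were all weaker than 29, and 7 of its 10 JunD peaks were overlapped by BACH2. Both strong BACH2 peaks of this region were free of JunD within 500 bp, at gaps of 9.49 and 4.02 kb. The same held for 55.8% of all strong peaks. Each BACH2 peak that met JunD there was a weaker one, but other weaker peaks there also had no JunD within 500 bp.

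Upstream of Bcl6, which encodes a transcriptional repressor that drives the follicular helper T cell lineage, strong peaks with and without JunD were interleaved. Those without JunD were chr16:24136490-24136946 (33.0-fold, −log10 q 141.7), chr16:24215371-24215758 (16.1-fold, 55.6) and chr16:24238439-24238784 (14.4-fold, 39.6). Those with JunD were chr16:24151254-24151836 (11.2-fold, 59.7) and chr16:24223183-24223584 (6.57-fold, 32.2). For these few peaks of a chosen locus, the folds of the groups did not overlap, while the −log10 q values did. Among all strong peaks the folds overlapped widely. Their median was 12.2 (interquartile range 9.83 to 15.7) without JunD and 12.0 (9.44 to 16.4) with it.

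**Figure D5:**
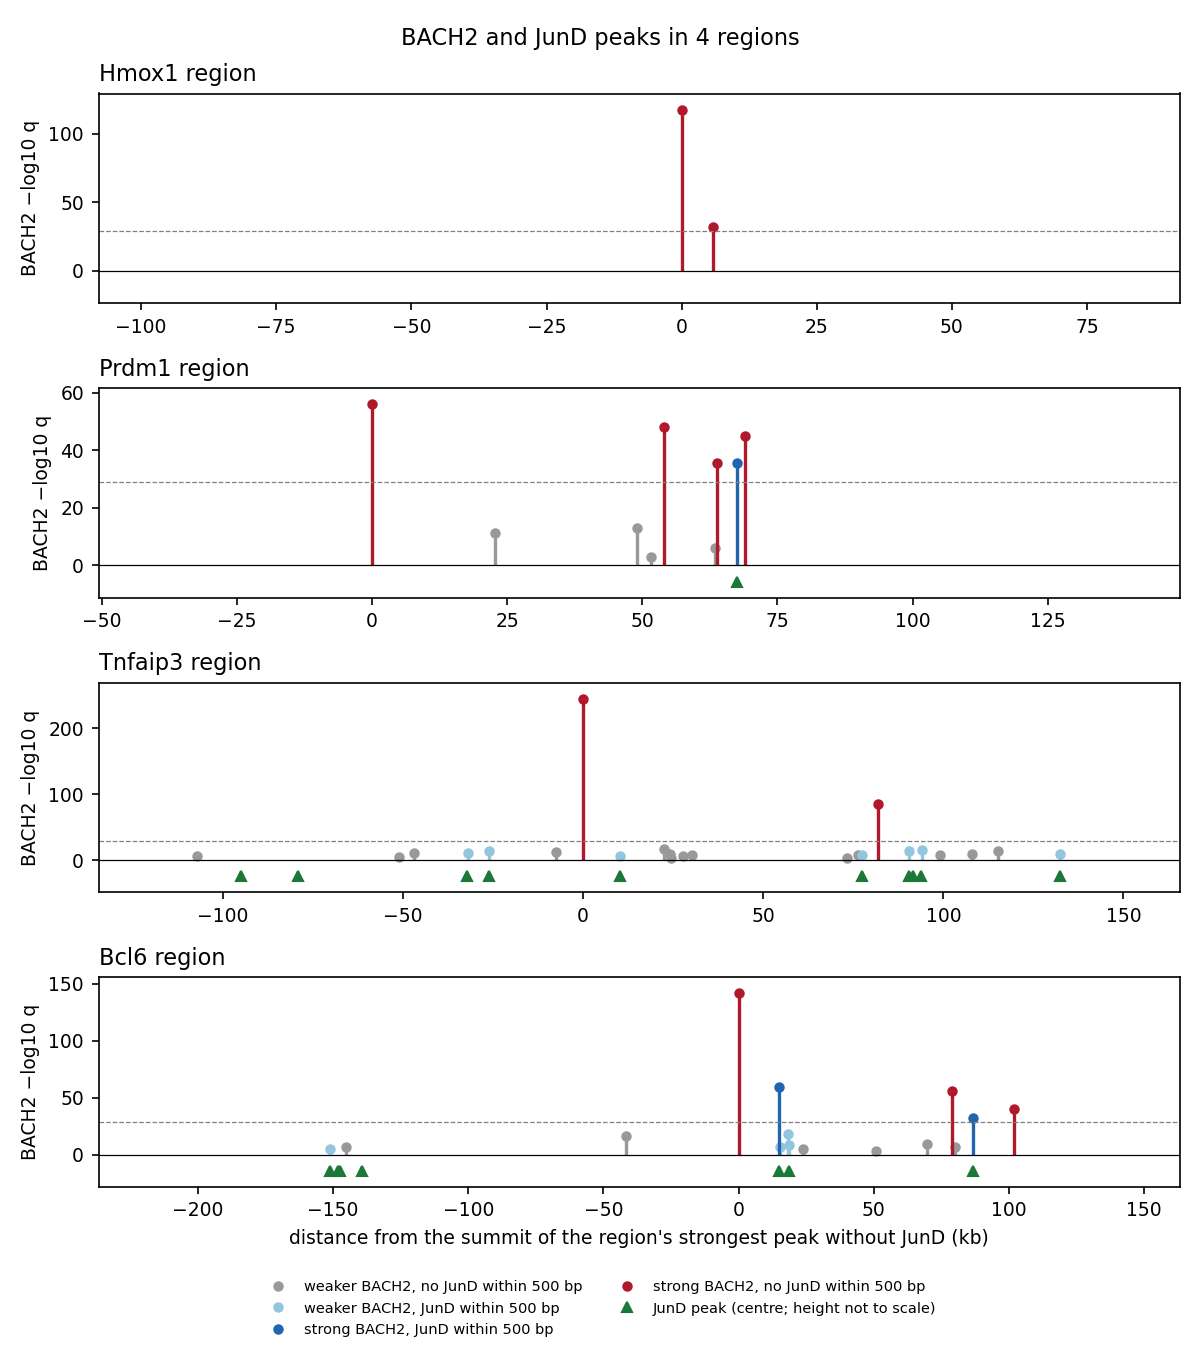
BACH2 peaks (stems, height is −log10 q) and JunD peaks (green triangles, drawn at a fixed height) around 4 genes, by distance in kb from the summit of the strongest peak without JunD in each region. Red stems are strong peaks without JunD within 500 bp, blue stems strong peaks with it, grey and pale blue stems weaker peaks, and the dashed line is the threshold of 29. The Hmox1 region has 2 red stems and no triangle, and the Tnfaip3 region has red stems of 244.8 and 85.0 among 21 weaker peaks.

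Further examples lay at genes of resting and activated T cells. Near the start of Il7r, which encodes the interleukin 7 receptor of resting T cells, chr15:9464791-9465494 was enriched 29.3-fold (−log10 q 154.2) with JunD at 4.82 kb, and a strong peak with JunD, chr15:9457782-9458431 (12.6-fold, 66.8), stood beside it. At Tcf7, which encodes the factor TCF-1 of resting T cells, chr11:52074287-52074751 (17.6-fold, 63.6) and chr11:52075383-52075871 (15.2-fold, 119.8) had summits 1.08 kb apart and JunD at 32.8 and 31.7 kb. At Bach1, the gene of the related factor, chr16:87700024-87700728 (19.7-fold, 90.4) had no JunD within 12.3 kb, while the stronger chr16:87713104-87713969 (28.8-fold, 217.2) was overlapped by JunD.

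In the locus of the costimulatory receptor genes Cd28, Ctla4 and Icos, 3 strong peaks lacked JunD and 6 had it. The 3 were chr1:60917290-60917784 (15.97-fold, −log10 q 142.2), chr1:61042808-61043284 (13.0-fold, 58.4) and chr1:61096172-61096523 (12.7-fold, 56.0). This window of 400 kb held 23 JunD peaks, and 17 of them lay within 100 kb of the first summit, so these strong peaks were not remote from JunD. The gaps to the nearest JunD peak were 14.2, 10.5 and 6.16 kb. The strong peaks without JunD thus ranged from a region with no JunD peak at all, at Hmox1, to one crowded with JunD peaks.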

How the data were processed

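Peak lists of 1 BACH2 and 1 JunD ChIP-seq library were used. Per the submitters' processing notes, the aligner was Bowtie 0.12.9 and the mouse build mm9 (NCBIM37). Caller settings, control and any pooling: not given in the sources used here. The BACH2 list the authors deposited gives each peak a fold enrichment (a ratio), a −log10 p, a −log10 q and a summit, read from the narrowPeak layout. The JunD list the authors deposited gives a single score per peak, of unstated scale; its peak names begin with MACS.

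Computed here were the gap in bp from each BACH2 interval to the nearest JunD and BACH2 interval, groups of neighbouring peaks, and Wilson 95% intervals. No p-value was computed. The functions were tested on simulated data: planted gaps were returned for 100% of 9133 peaks, and 500 of 500 planted groups were found. Coordinates are mm9, counted from 1. Neither sequence nor annotation of mm9 was used, so the planned motif, promoter and gene list counts were not run. Peaks named were, by rule, the 15 strongest, the 5 extremes of fold, width and distance, those beside the limits, and 5 groups of 3 (of 9 at 50 kb, by highest −log10 q). The peaks, lists and loci were chosen with earlier results of these data known. Python 3.11.15, numpy 2.4.6, pandas 2.3.3, scipy 1.17.1 and matplotlib 3.10.9 were used.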

Additional observations from a re-analysis of the deposited data

How the results depend on the processing

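The number of strong peaks without JunD depended on the limits. It was 1560, 637 and 338 at −log10 q thresholds of 20, 40 and 60, where the median fold was 10.4, 14.5 and 17.1 and the median width 371, 438 and 489.5 bp. The share without JunD was 51.2% and 48.8% at 40 and 60, and stayed within its interval at 20, at 57.5%. Extending the intervals by 5 or 10 kb lowered it to 48.7% and 44.7%, with 898 and 824 peaks left. Counting only the stronger 50% of JunD peaks raised it to 70.9%. Ranking by fold gave 61.7%, a median fold of 11.6 and a median width of 377 bp, and 873 of its 1139 peaks were among the 1030. A BACH2 neighbour was found for 26.5%, 70.1% and 82.1% within 5, 50 and 100 kb. Requiring overlap of the interval itself, extending by 1 kb, measuring from summit to JunD centre and leaving out X moved the number, share, median fold and median width by less than their intervals or 1.5 times. An added check, chosen after the data were seen, measured fold and width by class from summit to centre; it moved few strong peaks to the other side and so bears little on the effect of width. No paired analysis was possible because there was 1 library per factor. JunD sites under the lowest listed score would count here as no JunD, and how many there are depends on a sequencing depth that the files do not give.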
